A study of Homo sapiens with 16 samples.

Results

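The genes described here encode the machinery that licenses replication origins and drives the replication fork. They are 48 genes chosen by symbol: 6 subunits of the origin recognition complex, 3 licensing factors, 6 subunits of the MCM2-7 helicase, 8 helicase activators, 9 polymerase and primase subunits, 6 clamp and clamp loader subunits, 3 enzymes of Okazaki fragment processing, 3 single-strand binding subunits and 4 fork protection factors. All 48 were matched by Ensembl identifier among the 62069 genes of the count table, and all 48 passed the low-count filter that left 13526 genes. RNA was sequenced from 16 libraries, 4 in each of 4 groups, of the human line IMR90 ER:RAS. Its parent IMR90 is a strain of lung fibroblasts, and the added transgene joins oncogenic RAS to an oestrogen receptor domain, so that 4-hydroxytamoxifen (4OHT) activates it. The shAHCY_4 and shAHCY_2 groups carried different short hairpin RNAs against AHCY and received 4OHT. EV_4OHT cells carried the empty vector and received 4OHT, which the labels call senescent, and EV cells carried the empty vector and are labelled non-senescent. AHCY hydrolyses S-adenosylhomocysteine, the by-product of methylation reactions that use S-adenosylmethionine. Every group was of passage 15 and kept for 6 days in DMEM with 10% FBS, with a change of medium on day 4, and 4OHT was used at 100 nM. The label that counts days after 4OHT gives 6 for EV as well, no group lacked the fusion and received 4OHT, and no group carried a hairpin without 4OHT. Whether the 4 libraries of each group were grown separately is not stated, so the p-values reflect only library-to-library spread, which may be technical.

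In dividing cells the origin recognition complex, CDC6 and CDT1 load the MCM2-7 ring onto DNA in G1, which is called licensing. In S phase the kinase CDC7 with DBF4, together with CDC45, the GINS complex and MCM10, turns the loaded ring into the active helicase, behind which polymerases, the PCNA clamp and its loader copy the strands. Many of these genes are transcribed through E2F factors, which RB-family proteins hold in check in arrested cells, and cells in oncogene-induced senescence stop replicating their DNA.

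Library totals ran from 8236199 to 15144530 counts with shAHCY_4, from 10066216 to 14692680 with shAHCY_2, from 12502278 to 15284201 in EV_4OHT and from 13956130 to 18235787 in EV. AHCY had 110 to 334 counts in the 8 hairpin libraries, against 1552 to 2583 in the 8 vector libraries. Summed fibroblast markers stood at 4690 to 5280 CPM (counts scaled to a common library size) with shAHCY_4, 4780 to 5240 with shAHCY_2, 4700 to 4860 in EV_4OHT and 10300 to 11900 in EV, and whether their difference bears on the results was not tested. Epithelial, immune and endothelial markers summed to at most 3.81, 1.05 and 1.8 CPM in any library, with KRT14, CD3E, ITGAM, PECAM1 and CDH5 at 0 counts. Replicate 59 of shAHCY_2 stood apart, with a deviation from the mean of all libraries that fell with gene GC content (Spearman's rho = -0.535 across genes), and each member call against EV_4OHT or EV that changed without it is given with and without it. EV replicate 51 also stood apart, with a rho of -0.266. Its chi-square per degree of freedom was 32.3 and 29.6 with EV replicates 49 and 52 but 9.53 with replicate 50, beside 23.3 to 28.1 for replicate 59 with the other shAHCY_2 libraries. The largest trends of the opposite sign were those of shAHCY_4 replicates 62 and 63, with a rho of 0.281 and 0.227. Without EV replicate 51, ORC3 no longer passed between EV_4OHT and EV, nor PCNA between shAHCY_2 and EV (log2 changes of -0.28 and -0.26, adjusted p = 0.088 and 0.052), and no other member call was lost or gained.

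The replication genes were lower in senescent cells almost throughout. Of the 48 members, 44 were lower in EV_4OHT than in EV at an adjusted p under 0.05 in edgeR's quasi-likelihood test, 1 was higher and 3 did not pass, while 26.8% of all genes tested were lower and 26.7% were higher. The median log2 fold change of the members was -1.47, beside -0.02 over all genes. By at least 2-fold, 31 of 48 members were lower, beside 1430 of all 13526 genes tested. With unscaled library totals the median of all genes was -0.128 and that of the members -1.58, and of all called genes 38.2% were higher, against 49.9% with TMM factors. The members summed to 1060 ± 33.5 CPM in EV_4OHT and 2070 ± 8.25 CPM in EV (mean ± SD, n = 4 each), after scaling by TMM factors, as are all CPM values here. In bulk RNA, fewer cells expressing a gene and less RNA per cell cannot be told apart.

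With either hairpin, part of this set stood above the senescent vector cells and none of it below. With shAHCY_4, 29 of 48 members were higher than in EV_4OHT, where 7.58% of all genes were higher and 6.86% lower. With shAHCY_2, 28 of 48 were higher, where 3.91% of all genes were higher and 3.07% lower. No member was lower with either hairpin in edgeR, at an unadjusted p under 0.05 as well, nor in DESeq2 or limma-voom. The median log2 fold change was 0.49 with shAHCY_4 and 0.50 with shAHCY_2, beside 0.01 over all genes in each comparison. By at least 2-fold, 8 and 7 of 48 members were higher, beside 189 and 152 of all 13526 genes tested. The summed level was 1400 ± 23.2 CPM with shAHCY_4 and 1380 ± 45.9 CPM with shAHCY_2, and only the hairpin groups overlapped in this sum. With unscaled library totals 67.4% of all genes called with shAHCY_4 and 69.8% of those called with shAHCY_2 were higher ones, beside 52.5% and 56% after TMM scaling, and no member was lower. The comparisons with EV_4OHT share its 4 libraries, so the hairpins are given side by side and not as independent repeats.

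Most members were below the non-senescent level with either hairpin. Set against EV, 41 of 48 were lower and 2 were higher with shAHCY_4, where 25.8% of all genes were lower and 25.4% higher. With shAHCY_2, 40 were lower and 2 higher, where 23.6% of all genes were lower and 24.5% higher. The median member stood at 51.7% of its EV mean with shAHCY_4, 53.1% with shAHCY_2 and 36.1% in EV_4OHT. Members under 50% of EV numbered 17 with shAHCY_4, 23 with shAHCY_2 and 31 in EV_4OHT. The 2 higher members were ORC5 and RPA2 in each comparison, and these comparisons share the EV libraries.

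**Figure D1:**
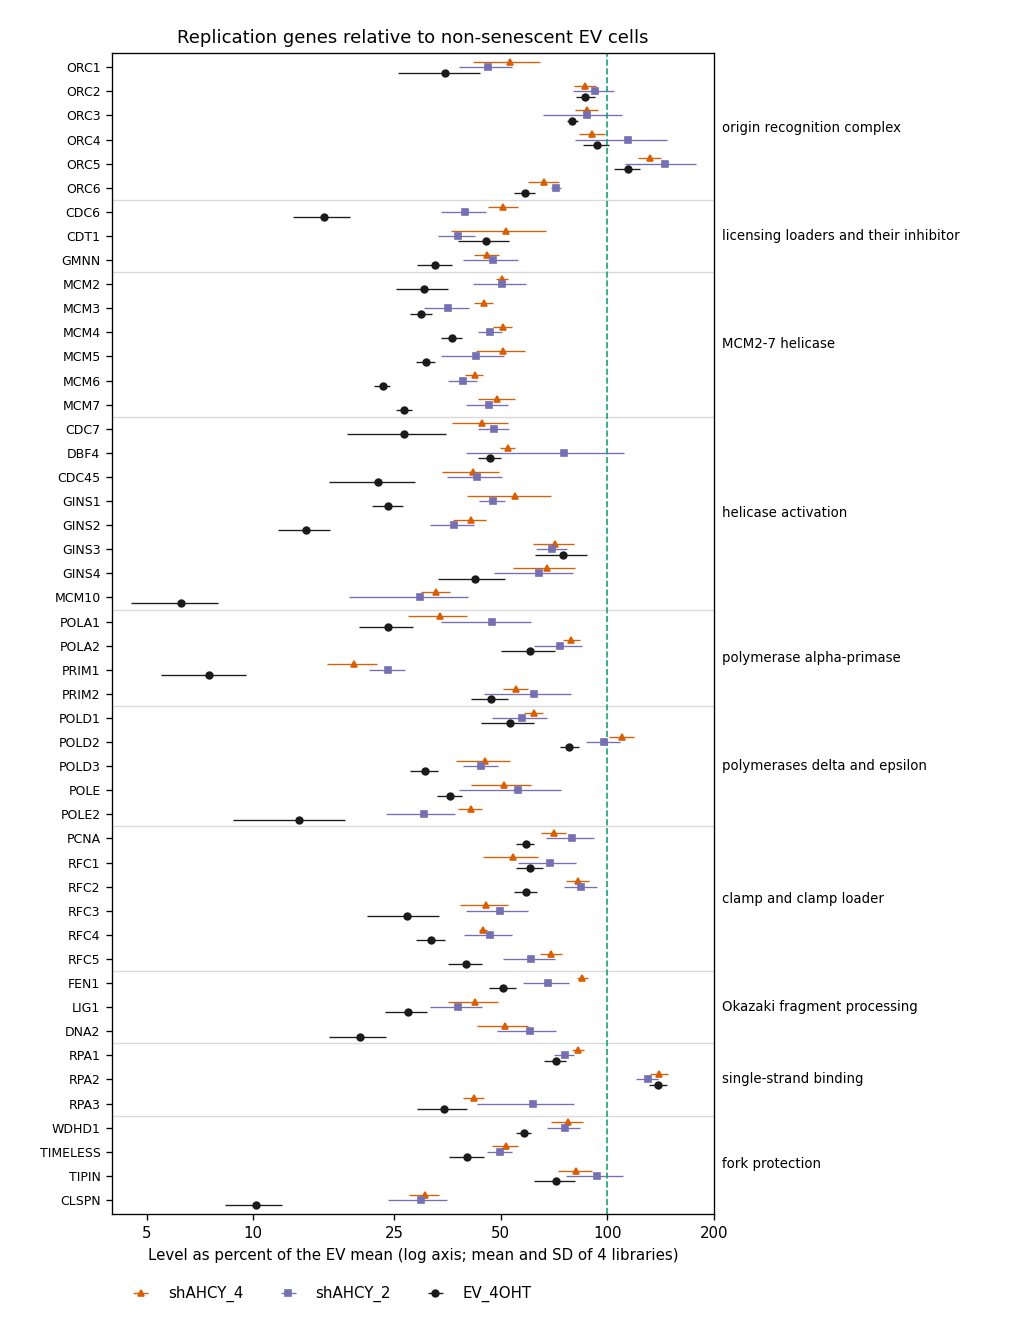
Level of each of the 48 members in shAHCY_4 (triangles), shAHCY_2 (squares) and EV_4OHT (circles) as a percent of its EV mean on a log axis, with the SD over 4 libraries and the members grouped by role. Median members lie at 51.7%, 53.1% and 36.1%, MCM10 in EV_4OHT is lowest at 6.25%, and ORC5 and RPA2 lie to the right of the dashed EV line in all 3 groups.

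The promoters of 6 members are shown to set promoter letters beside the changes given further on: CDC6, MCM10, GINS2 and MCM6 hold E2F-type letters and fell by over 2 on the log2 scale in EV_4OHT, PRIM1 holds none and fell nearly as far as MCM10, and ORC2 holds none and did not pass the test. Members that hold such letters and fell little, such as GINS3 and ORC3 with log2 changes of -0.41 and -0.33, are not printed. The windows are RefSeq's, on GRCh38.p14, from 250 bases before to 50 bases after the annotated start, written 5′ to 3′ on the gene's strand. They lie at chr17:40287629-40287928 (plus strand) for CDC6, chr10:13161308-13161607 (plus) for MCM10, chr16:85688905-85689204 (minus) for GINS2, chr2:135876394-135876693 (minus) for MCM6, chr12:56752274-56752573 (minus) for PRIM1 and chr2:200963611-200963910 (minus) for ORC2. Capitals mark matches on either strand to the E2F-type letters TTTGGCGC, TTTCCCGC, TTTCGCGC and TTTGGCGG, and, in the run nearest the 5′ end of MCM6, a match to the letters TTCGAA.
CDC6: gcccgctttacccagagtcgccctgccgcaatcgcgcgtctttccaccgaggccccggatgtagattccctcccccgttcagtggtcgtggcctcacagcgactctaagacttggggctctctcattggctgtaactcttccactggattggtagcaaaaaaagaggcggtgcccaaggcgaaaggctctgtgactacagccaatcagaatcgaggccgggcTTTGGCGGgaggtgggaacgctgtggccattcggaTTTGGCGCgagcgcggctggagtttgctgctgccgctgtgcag
MCM10: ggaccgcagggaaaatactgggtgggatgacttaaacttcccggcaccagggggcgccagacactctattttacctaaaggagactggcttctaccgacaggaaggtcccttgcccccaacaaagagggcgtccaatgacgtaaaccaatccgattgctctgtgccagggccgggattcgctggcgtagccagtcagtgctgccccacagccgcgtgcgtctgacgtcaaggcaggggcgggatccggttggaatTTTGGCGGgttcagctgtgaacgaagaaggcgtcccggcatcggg
GINS2: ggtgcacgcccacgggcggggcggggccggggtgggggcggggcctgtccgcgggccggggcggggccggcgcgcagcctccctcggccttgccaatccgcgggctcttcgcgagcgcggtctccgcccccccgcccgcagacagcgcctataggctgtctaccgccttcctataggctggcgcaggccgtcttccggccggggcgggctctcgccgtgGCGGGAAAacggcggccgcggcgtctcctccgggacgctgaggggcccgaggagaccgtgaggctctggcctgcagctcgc
MCM6: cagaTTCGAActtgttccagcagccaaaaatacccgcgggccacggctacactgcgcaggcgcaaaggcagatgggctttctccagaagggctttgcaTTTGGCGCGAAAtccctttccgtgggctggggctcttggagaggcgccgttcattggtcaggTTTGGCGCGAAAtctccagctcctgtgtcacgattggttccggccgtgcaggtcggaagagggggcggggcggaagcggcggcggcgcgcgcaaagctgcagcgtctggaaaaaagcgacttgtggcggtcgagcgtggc
PRIM1: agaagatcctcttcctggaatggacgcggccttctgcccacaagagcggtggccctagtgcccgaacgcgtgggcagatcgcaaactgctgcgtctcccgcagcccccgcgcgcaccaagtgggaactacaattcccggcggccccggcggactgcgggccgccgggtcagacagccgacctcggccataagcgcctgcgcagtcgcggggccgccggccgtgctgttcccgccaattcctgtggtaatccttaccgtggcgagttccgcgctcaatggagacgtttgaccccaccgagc
ORC2: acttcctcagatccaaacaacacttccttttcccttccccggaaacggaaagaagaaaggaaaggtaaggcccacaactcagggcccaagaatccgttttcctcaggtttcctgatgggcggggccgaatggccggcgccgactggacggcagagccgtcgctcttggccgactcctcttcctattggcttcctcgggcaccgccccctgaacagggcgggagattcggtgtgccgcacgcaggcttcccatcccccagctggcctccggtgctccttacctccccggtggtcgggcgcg
The CDC6 matches began 28 bases before and 7 bases after the start, and the MCM10 match 5 bases after it. The GINS2 match lay on the opposite strand, 31 bases before the start. MCM6 held 2 runs of 12 letters, each an overlapping pair of matches on opposite strands. PRIM1 and ORC2 held no such letters in these windows.

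Among the 6 origin recognition genes, whose products mark origins and recruit the licensing factors, ORC1, ORC3 and ORC6 were lower in EV_4OHT than in EV, while ORC2, ORC4 and ORC5 did not pass. ORC1, the largest subunit, had 4.75, 6.06, 3.63 and 4.44 CPM with shAHCY_4, 3.52, 4.93, 4.36 and 3.48 with shAHCY_2, 3.82, 3.61, 2.74 and 2.11 in EV_4OHT and 10.4, 10.2, 7.51 and 7.38 in EV. Every EV library lay above the other 12, and its log2 change in EV_4OHT was -1.53 ± 0.21 (SE; adjusted p = 1.7e-06). ORC6, the smallest subunit, fell by 0.77 ± 0.09 (adjusted p = 2.4e-07). ORC3 fell by 0.33 ± 0.13 (adjusted p = 0.031), a call that 7 of 17 alternative settings lost. Against EV, ORC3 with shAHCY_2 differed by -0.19 (adjusted p = 0.22) with all libraries and by -0.37 (adjusted p = 0.0022) without replicate 59. ORC2, ORC4 and ORC5 changed by -0.21, -0.10 and 0.18, with 95% intervals of -0.41 to 0.00, -0.41 to 0.21 and -0.06 to 0.42.

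No origin recognition gene passed the test with either hairpin against EV_4OHT in edgeR, the largest differences being those of ORC1, 0.62 ± 0.22 with shAHCY_4 (adjusted p = 0.062) and 0.41 ± 0.22 with shAHCY_2 (adjusted p = 0.29). At an unadjusted p under 0.05 there was 1 with shAHCY_4, ORC1, and there were 2 with shAHCY_2, ORC5 and ORC6. ORC1 passed with shAHCY_4 under 4 of 17 alternative settings, and ORC6 and ORC5 passed with shAHCY_2 under 3 and 1. Against EV, ORC5 was higher with shAHCY_4 (0.39 ± 0.12, adjusted p = 0.0099) and with shAHCY_2 (0.53 ± 0.12, adjusted p = 0.001). ORC5 had 62.8, 54, 56.1 and 61.8 CPM with shAHCY_4, 59.2, 59.2, 85.9 and 53.8 with shAHCY_2, 54.1, 51.4, 44.4 and 53 in EV_4OHT and 40.8, 50.7, 47.7 and 39.2 in EV. The highest of these, 85.9 CPM, was that of replicate 59, and even without it each shAHCY_2 library lay above all 4 EV libraries.

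CDC6, CDT1 and GMNN, the loading factors and geminin, the inhibitor that binds CDT1, were all lower in EV_4OHT. Against EV_4OHT, CDC6 and GMNN passed with both hairpins and CDT1 with neither. CDC6 had 15.7, 19.8, 18.8 and 18.8 CPM with shAHCY_4, 16.5, 13.7, 11.6 and 15.2 with shAHCY_2, 5.40, 6.44, 6.63 and 4.36 in EV_4OHT and 39.2, 29.5, 33.6 and 41.1 in EV. Both hairpin groups lay wholly between the senescent and the non-senescent libraries. CDC6 fell by 2.65 ± 0.15 in EV_4OHT against EV (adjusted p = 8.5e-13) and rose against EV_4OHT by 1.68 ± 0.15 with shAHCY_4 (adjusted p = 6.3e-08) and by 1.32 ± 0.15 with shAHCY_2 (adjusted p = 4.3e-06). GMNN fell by 1.62 ± 0.13 in EV_4OHT and rose by 0.48 ± 0.13 and 0.54 ± 0.13 with shAHCY_4 and shAHCY_2 (adjusted p = 0.015 and 0.012).

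CDT1 also fell in EV_4OHT, by 1.15 ± 0.22 (adjusted p = 0.00016), but did not pass with either hairpin. It had 1.22, 2.31, 2.07 and 2.68 CPM with shAHCY_4, 1.30, 1.72, 1.45 and 1.57 with shAHCY_2, 2.08, 1.65, 1.47 and 2.03 in EV_4OHT and 4.29, 3.82, 4.23 and 3.63 in EV. All 3 groups given 4OHT overlapped and lay below EV. Against EV_4OHT the difference was 0.24 ± 0.24 with shAHCY_4 (adjusted p = 0.58; 95% interval -0.23 to 0.71) and -0.24 ± 0.25 with shAHCY_2 (adjusted p = 0.62; 95% interval -0.74 to 0.25). CDT1 was among the least counted members, with 21 to 27 counts per EV_4OHT library, and its intervals leave out changes as large as those of CDC6 on the side of an increase. With shAHCY_4, however, the CDT1 interval takes in the rise of GMNN, 0.48, and the genes were not tested against each other.

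The 6 genes of the MCM2-7 ring, the motor of the replicative helicase, moved together. Each was lower in EV_4OHT, by 1.46 ± 0.08 for MCM4 to 2.11 ± 0.09 for MCM6, and each was higher with shAHCY_4 than in EV_4OHT, by 0.48 to 0.88. With shAHCY_2, 5 of 6 were higher, by 0.36 for MCM4 to 0.79 for MCM7, and MCM3 differed by 0.26 ± 0.11 (adjusted p = 0.15). MCM7 had 69.7, 89.2, 90.0 and 78.3 CPM with shAHCY_4, 85.2, 83.5, 62 and 78.5 with shAHCY_2, 47.9, 42.8, 43.9 and 43.8 in EV_4OHT and 188, 163, 144 and 173 in EV. MCM6 had 22.7, 20.3, 19.8 and 21.2 CPM with shAHCY_4, 21.5, 16.9, 19.8 and 19.9 with shAHCY_2, 11.6, 11.8, 10.7 and 12.1 in EV_4OHT and 51.1, 50.4, 47.6 and 50.2 in EV. For both genes EV_4OHT was lowest and EV highest with no overlap. Against EV all 6 remained lower with both hairpins, at 42.2% to 50.7% of the EV mean with shAHCY_4 and 35.5% to 50.3% with shAHCY_2.

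MCM5 was the least stable of the ring with shAHCY_2, at 0.48 ± 0.14 (adjusted p = 0.033), a call lost under 9 of 17 alternative settings. MCM2 rose by 0.74 ± 0.13 with each hairpin, and 23.6% of its annotated exon bases overlap genes on the other strand, which Smart-Seq2 reads cannot separate. Per kilobase of the longest annotated transcript, MCM7 was the highest of the 6 in every group, at 26.5 ± 3.14 CPM per kb with shAHCY_4, 25.1 ± 3.44 with shAHCY_2, 14.5 ± 0.726 in EV_4OHT and 54.2 ± 5.92 in EV. The ratio of the highest to the lowest of the 6 levels per kb was 4.72 with shAHCY_4, 4.8 with shAHCY_2, 4.69 in EV_4OHT and 4.48 in EV, so the spread among the 6 genes differed little between the groups while their level moved. The products form a ring of equal parts, but the length correction rests on the transcript chosen: with the mean transcript length MCM4 was above MCM7 in EV_4OHT, at 27.1 against 26.2 CPM per kb.

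**Figure D2:**
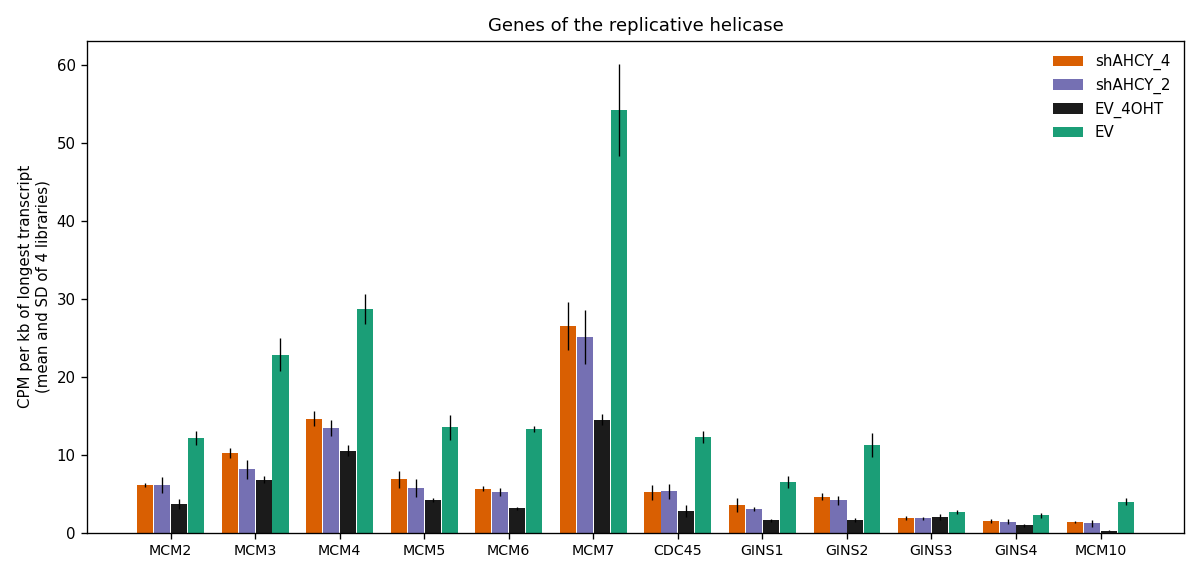
Level in CPM per kb of the longest annotated transcript for the MCM2-7 genes, CDC45, the GINS genes and MCM10, as bars of the mean with the SD over 4 libraries, for shAHCY_4, shAHCY_2, EV_4OHT and EV. MCM7 is highest in every group, at 26.5, 25.1, 14.5 and 54.2 CPM per kb, and GINS3 differs least between the groups.

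Of the 8 genes that activate the helicase, all were lower in EV_4OHT, and 6 were higher with each hairpin. MCM10, which is required to start unwinding, showed the largest change of any member in each of these comparisons. It had 6.33, 6.54, 5.62 and 5.36 CPM with shAHCY_4, 4.72, 7.44, 2.91 and 6.35 with shAHCY_2, 0.831, 1.57, 1.07 and 1.05 in EV_4OHT and 16.6, 17.2, 17.6 and 21.0 in EV. The EV_4OHT libraries held only 10 to 20 counts each, and no library of another group came down to their level. MCM10 fell by 3.99 ± 0.24 in EV_4OHT (adjusted p = 2.3e-12), to 6.25% of the EV mean. It rose by 2.38 ± 0.25 with shAHCY_4 (adjusted p = 7.8e-07) and by 2.26 ± 0.26 with shAHCY_2 (adjusted p = 3.2e-06), which left it at 32.9% and 29.6% of EV.

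The GINS genes encode the 4 subunits of a complex that joins CDC45 and the MCM ring, and they did not move as a unit. GINS2 had 10.7, 13.1, 13.7 and 11.9 CPM with shAHCY_4, 9.90, 9.51, 12.7 and 12.1 with shAHCY_2, 4.24, 5.03, 4.42 and 3.31 in EV_4OHT and 24.4, 31.3, 34.3 and 30.1 in EV. GINS3 had 6.09, 5.02, 6.95 and 6.14 CPM with shAHCY_4, 5.55, 5.65, 6.85 and 5.74 with shAHCY_2, 6.90, 4.87, 7.30 and 6.47 in EV_4OHT and 8.65, 8.40, 7.46 and 9.59 in EV. GINS2 set the 3 levels apart with no overlap, whereas GINS3 overlapped among all groups given 4OHT. GINS2 fell by 2.82 ± 0.15 and GINS1 by 2.05 ± 0.16 in EV_4OHT, GINS4 by 1.24 ± 0.20 and GINS3 by 0.41 ± 0.15 (adjusted p = 0.026, lost under 3 of 17 settings). With shAHCY_4, GINS1, GINS2 and GINS4 rose by 1.16, 1.54 and 0.68, and with shAHCY_2 GINS1 and GINS2 rose by 0.97 and 1.37, while GINS4 differed by 0.62 ± 0.20 (adjusted p = 0.072), or by 0.73 without replicate 59 (adjusted p = 0.031). GINS3 differed by -0.08 ± 0.16 with shAHCY_4 and -0.11 ± 0.16 with shAHCY_2 (adjusted p = 0.80 and 0.73). GINS4 shares 23.6% of its exon bases with genes on the other strand.

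CDC45, the partner of GINS in the helicase, fell by 2.16 ± 0.17 in EV_4OHT and rose by 0.91 ± 0.18 with shAHCY_4 and 0.95 ± 0.18 with shAHCY_2 (adjusted p = 0.0013 and 0.0016). CDC7, the kinase that fires origins, fell by 1.91 ± 0.20 and rose by 0.73 ± 0.21 and 0.85 ± 0.21 (adjusted p = 0.023 and 0.015), although the shAHCY_4 call was lost in 6 of 17 settings. DBF4, the regulatory subunit of CDC7, had 16.9, 15.8, 16.1 and 17.4 CPM with shAHCY_4, 16.5, 19.2, 40.8 and 19.4 with shAHCY_2, 15.1, 16.2, 13.9 and 13.9 in EV_4OHT and 26.0, 38.9, 34.8 and 27.1 in EV. The value of 40.8 CPM, above every EV library, was that of replicate 59. The shAHCY_2 difference from EV_4OHT was 0.68 ± 0.20 (adjusted p = 0.045) with all libraries and 0.32 (adjusted p = 0.18) without replicate 59, and with shAHCY_4 it was 0.17 ± 0.21 (adjusted p = 0.66). Against EV, DBF4 with shAHCY_2 differed by -0.42 (adjusted p = 0.082) with all libraries and by -0.78 (adjusted p = 1.4e-05) without replicate 59. DBF4 has 3 annotated pseudogenes by name, and how the counting treated reads they share is not given in the sources used here.

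**Figure D3:**
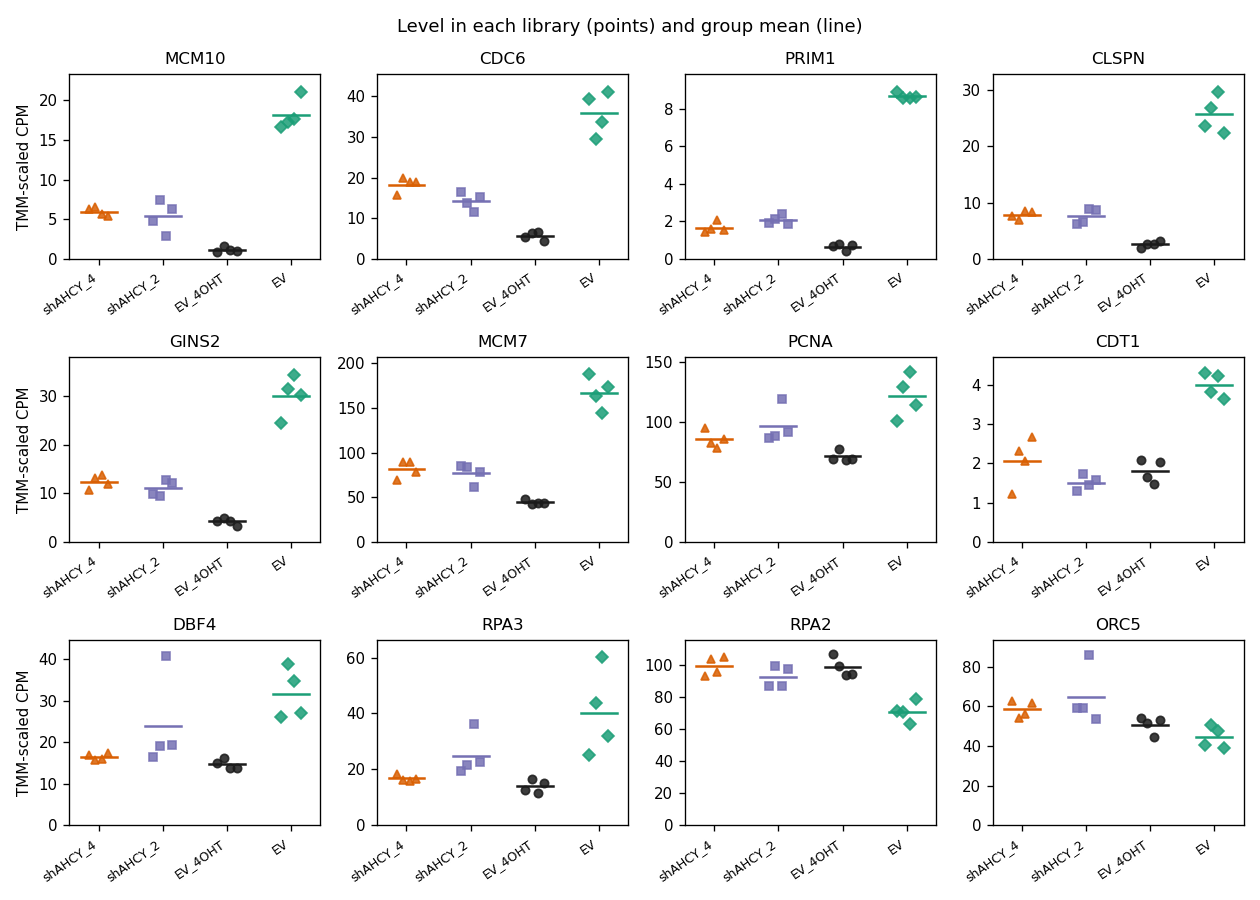
TMM-scaled CPM of 12 members in each library (points) with the group mean (line), for shAHCY_4, shAHCY_2, EV_4OHT and EV from left to right, on linear axes that start at 0. MCM10, CDC6, PRIM1, CLSPN, GINS2 and MCM7 form 3 separate levels, CDT1 overlaps among the groups given 4OHT, RPA2 is lowest in EV, and DBF4, RPA3, PCNA and ORC5 each have 1 high shAHCY_2 library, replicate 59.

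The subunits of polymerase alpha-primase, which lays the RNA-DNA primers, were all lower in EV_4OHT, and the catalytic primase PRIM1 most. PRIM1 had 1.46, 1.59, 2.07 and 1.57 CPM with shAHCY_4, 1.94, 2.15, 2.39 and 1.84 with shAHCY_2, 0.665, 0.786, 0.402 and 0.752 in EV_4OHT and 8.90, 8.60, 8.57 and 8.61 in EV. It was the member furthest below EV in both hairpin groups, at 19.3% and 24.0%, against 7.51% in EV_4OHT, where 6 to 10 counts lay behind each value. PRIM1 fell by 3.73 ± 0.22 in EV_4OHT and rose by 1.38 ± 0.26 with shAHCY_4 and 1.67 ± 0.25 with shAHCY_2 (adjusted p = 0.00074 and 0.00012). PRIM2, the large primase subunit, fell by 1.1 ± 0.14 and did not pass with either hairpin, at 0.23 ± 0.15 and 0.40 ± 0.15 (adjusted p = 0.33 and 0.11). Of annotated exon bases, 21.6% in PRIM1 and 35.1% in POLA2 overlap other genes, some on the same strand.

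POLA1, the catalytic polymerase subunit, and POLA2, its regulatory partner, passed with different hairpins. POLA1 fell by 2.05 ± 0.22 in EV_4OHT, rose by 0.98 ± 0.24 with shAHCY_2 (adjusted p = 0.013) and differed by 0.49 ± 0.25 with shAHCY_4 (adjusted p = 0.21). POLA2 fell by 0.72 ± 0.12 in EV_4OHT, rose by 0.39 ± 0.12 with shAHCY_4 (adjusted p = 0.039) and differed by 0.28 ± 0.13 with shAHCY_2 (adjusted p = 0.19). The difference between the hairpins passed for neither, at -0.49 ± 0.23 for POLA1 and 0.11 ± 0.12 for POLA2 (adjusted p = 0.27 and 0.69).

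All 5 genes of the strand-copying polymerases delta and epsilon were lower in EV_4OHT, over a wide range. POLE2, a small subunit of polymerase epsilon, fell by 2.91 ± 0.25, and POLD2, a small subunit of polymerase delta, by 0.36 ± 0.09 (adjusted p = 1.2e-09 and 0.0014). POLE2 had 4.99, 4.46, 5.18 and 5.36 CPM with shAHCY_4, 2.59, 3.86, 3.74 and 4.58 with shAHCY_2, 2.24, 1.81, 0.870 and 1.65 in EV_4OHT and 10.6, 9.22, 17.4 and 11.3 in EV. No 2 of these groups overlapped except the hairpins with each other. POLE2 rose by 1.62 ± 0.26 with shAHCY_4 and 1.20 ± 0.27 with shAHCY_2 (adjusted p = 0.00017 and 0.0074).

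POLD2 rose with both hairpins and was then called different from EV with neither. It had 131, 159, 155 and 145 CPM with shAHCY_4, 139, 133, 111 and 144 with shAHCY_2, 111, 108, 105 and 96.2 in EV_4OHT and 141, 128, 127 and 143 in EV. The hairpin libraries overlapped with EV, and the lowest, 111 CPM in replicate 59, matched the top of EV_4OHT. POLD2 rose by 0.49 ± 0.09 with shAHCY_4 and 0.33 ± 0.09 with shAHCY_2 (adjusted p = 0.00048 and 0.024), to 110% and 97.8% of EV. Its differences from EV were 0.13 (95% interval -0.04 to 0.30) and -0.03 (95% interval -0.20 to 0.14). POLD1, the catalytic subunit of polymerase delta, fell by 0.91 ± 0.14 and did not pass with either hairpin, at 0.22 ± 0.15 and 0.12 ± 0.15 (adjusted p = 0.37 and 0.68).

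POLD3, a further subunit of polymerase delta, fell by 1.71 ± 0.15 and rose by 0.57 ± 0.16 with shAHCY_4 and 0.54 ± 0.16 with shAHCY_2 (adjusted p = 0.017 and 0.039). The shAHCY_2 call was lost under 10 of 17 settings, among them the fit without replicate 59 (0.50, adjusted p = 0.078). POLE, the catalytic subunit of polymerase epsilon, fell by 1.47 ± 0.21 and differed by 0.51 ± 0.23 and 0.66 ± 0.23 with the hairpins (adjusted p = 0.15 and 0.084). Without replicate 59 the shAHCY_2 difference of POLE was 0.85 and passed (adjusted p = 0.0069).

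PCNA, the sliding clamp, and the 5 subunits of its loader were lower in EV_4OHT, by 0.72 ± 0.12 for RFC1 to 1.88 ± 0.15 for RFC3. PCNA had 94.7, 82.8, 78.5 and 86.3 CPM with shAHCY_4, 86.7, 88.3, 119 and 91.7 with shAHCY_2, 69.6, 77.6, 68.8 and 69.5 in EV_4OHT and 101, 129, 142 and 114 in EV. EV_4OHT lay below all other libraries, and replicate 59 reached into the range of EV. PCNA fell by 0.77 ± 0.11 in EV_4OHT, rose by 0.43 ± 0.11 with shAHCY_2 (adjusted p = 0.016) and differed by 0.26 ± 0.11 with shAHCY_4 (adjusted p = 0.12). PCNA has 3 annotated pseudogenes by name, between which reads could be split.

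Among the loader genes, RFC2, RFC3, RFC4 and RFC5 rose with both hairpins, by 0.49 to 0.80 with shAHCY_4 and 0.52 to 0.86 with shAHCY_2. Against EV, RFC2 with shAHCY_2 differed by -0.24 (adjusted p = 0.034), a call lost without replicate 59 (-0.18, adjusted p = 0.11). RFC1, the large subunit, did not pass against EV_4OHT, at -0.17 ± 0.13 and 0.17 ± 0.13 (adjusted p = 0.43 and 0.45). RFC1 had 28.1, 23.5, 21.2 and 31.6 CPM with shAHCY_4, 28.4, 33.3, 41.9 and 29 with shAHCY_2, 25.5, 30.0, 31.4 and 30.2 in EV_4OHT and 51.4, 45.4, 49.2 and 47.3 in EV. The groups given 4OHT overlapped, and all lay below EV.

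Of the 3 genes that finish Okazaki fragments, DNA2, a nuclease and helicase for long flaps, changed most. DNA2 had 4.99, 5.90, 4.66 and 3.99 CPM with shAHCY_4, 5.37, 4.72, 7.26 and 5.60 with shAHCY_2, 1.5, 1.89, 2.34 and 1.88 in EV_4OHT and 9.71, 8.19, 12.8 and 7.32 in EV. It fell by 2.31 ± 0.21 in EV_4OHT and rose by 1.34 ± 0.23 with shAHCY_4 and 1.57 ± 0.22 with shAHCY_2 (adjusted p = 0.00028 and 7e-05). The EV and EV_4OHT libraries did not overlap with each other or with the hairpin libraries. LIG1, the ligase that seals the fragments, fell by 1.87 ± 0.16, rose by 0.64 ± 0.16 with shAHCY_4 (adjusted p = 0.011) and differed by 0.48 ± 0.17 with shAHCY_2 (adjusted p = 0.087, or 0.032 without replicate 59).

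FEN1, the flap endonuclease, had 62.6, 63.3, 58.4 and 60.7 CPM with shAHCY_4, 51.2, 50.9, 38.5 and 54.8 with shAHCY_2, 39.4, 38.1, 32.2 and 36.5 in EV_4OHT and 76.7, 69.9, 65.7 and 76.0 in EV. Every shAHCY_4 library lay above every shAHCY_2 library, and the lowest shAHCY_2 value, in replicate 59, fell among those of EV_4OHT. FEN1 fell by 0.98 ± 0.10 in EV_4OHT and rose by 0.74 ± 0.10 with shAHCY_4 and 0.42 ± 0.10 with shAHCY_2 (adjusted p = 1.7e-05 and 0.01). It stood at 85% of EV with shAHCY_4, where its difference from EV of -0.23 ± 0.10 (adjusted p = 0.047) was lost under 9 of 17 settings.

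RPA coats exposed single-stranded DNA, and its 3 subunit genes went different ways. RPA2, the middle subunit, had 93.4, 104, 96 and 105 CPM with shAHCY_4, 86.8, 99.2, 87.3 and 97.5 with shAHCY_2, 107, 99.7, 94.0 and 94.6 in EV_4OHT and 71.1, 71.0, 63.3 and 78.8 in EV. The groups given 4OHT overlapped and all lay above EV. RPA2 was the member that rose in EV_4OHT, by 0.47 ± 0.08 (adjusted p = 3.8e-05), and it did not pass with either hairpin against EV_4OHT, at 0.02 ± 0.08 and -0.09 ± 0.08 (adjusted p = 0.93 and 0.56). RPA2 has 3 annotated pseudogenes by name, so its level is less certain.

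RPA1, the large subunit, fell by 0.48 ± 0.08 in EV_4OHT and differed by 0.21 ± 0.08 with shAHCY_4 and 0.08 ± 0.08 with shAHCY_2 (adjusted p = 0.079 and 0.57). RPA3, the small subunit, had 18.5, 16.3, 16.0 and 16.7 CPM with shAHCY_4, 19.4, 21.5, 36.1 and 22.5 with shAHCY_2, 12.6, 16.4, 11.5 and 15.3 in EV_4OHT and 25.3, 43.6, 60.1 and 32.0 in EV. It fell by 1.53 ± 0.21 in EV_4OHT, and its highest value was that of EV replicate 51, without which the change was -1.28 (adjusted p = 5.3e-06). With shAHCY_2, RPA3 rose by 0.83 ± 0.22 (adjusted p = 0.022), or 0.60 without replicate 59 (adjusted p = 0.069), and with shAHCY_4 it differed by 0.27 ± 0.22 (adjusted p = 0.47). Against EV, RPA3 with shAHCY_2 changed by -0.70 (adjusted p = 0.007), or by -0.45 without EV replicate 51 (adjusted p = 0.047).

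Of the fork protection genes, CLSPN, which carries checkpoint signals from stalled forks, moved far more than the rest. CLSPN had 7.55, 6.85, 8.51 and 8.30 CPM with shAHCY_4, 6.20, 6.51, 8.92 and 8.74 with shAHCY_2, 2, 2.59, 2.68 and 3.16 in EV_4OHT and 23.6, 26.8, 29.6 and 22.4 in EV. Both hairpin groups lay wholly between EV_4OHT and EV. CLSPN fell by 3.29 ± 0.16 in EV_4OHT, to 10.2% of EV, and rose by 1.58 ± 0.18 with shAHCY_4 and 1.53 ± 0.18 with shAHCY_2 (adjusted p = 1.4e-06 and 3.7e-06).

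TIMELESS and TIPIN, which form a complex that steadies the fork, fell by 1.32 ± 0.12 and 0.49 ± 0.15 in EV_4OHT (adjusted p = 2.6e-09 and 0.0071). TIMELESS rose by 0.37 ± 0.12 with shAHCY_4 (adjusted p = 0.042), a call lost under 9 of 17 settings, and differed by 0.31 ± 0.12 with shAHCY_2 (adjusted p = 0.13). TIPIN did not pass with shAHCY_4 or shAHCY_2, at 0.19 ± 0.15 and 0.39 ± 0.15 (adjusted p = 0.44 and 0.12), and 21.0% of its exon bases overlap another gene on the same strand. WDHD1, which tethers polymerase alpha to the helicase, fell by 0.79 ± 0.11 and rose by 0.41 ± 0.11 with shAHCY_4 and 0.38 ± 0.11 with shAHCY_2 (adjusted p = 0.013 and 0.035). The shAHCY_2 call of WDHD1 was lost under 10 of 17 settings, among them the fit without replicate 59 (0.36, adjusted p = 0.071).

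The hairpins were then compared with each other, gene by gene. No member differed between shAHCY_4 and shAHCY_2 at an adjusted p under 0.05 in edgeR, where 1.24% of all genes tested did. That share changed with the libraries used: 73 genes were higher and 95 lower with all libraries, against 28 and 41 without shAHCY_4 replicate 62. A fit without 1 library also has fewer replicates, and whether that or the library itself mattered was not tested. At an unadjusted p under 0.05 there were 7, with CDC6, FEN1 and MCM3 higher in shAHCY_4 and DBF4, POLA1, RFC1 and RPA3 lower. The share of all genes under that unadjusted cut was not counted, so whether these 7 exceed it is not known. DESeq2 called 1, FEN1, and limma-voom none. The smallest adjusted p in edgeR was that of FEN1, 0.10, for a difference of 0.32 ± 0.10. MCM3 differed by 0.33 ± 0.10 (adjusted p = 0.11), with 32.1, 35.7, 31.3 and 31.8 CPM with shAHCY_4, against 28.4, 23.9, 21.7 and 29.8 CPM with shAHCY_2, and no overlap. Without replicate 59 the differences of CDC6, DBF4, RFC1 and RPA3 no longer reached an unadjusted p under 0.05, and those of FEN1, MCM3 and POLA1 did. The 95% intervals of all 48 differences lay between -0.98, for RPA3, and 0.97, for CDT1, which is just short of 2-fold in either direction. They use a fixed multiple of the SE, make no allowance for 48 genes, and can be narrower than the test implies. That of ORC4, -0.64 to -0.01, lay wholly below no change, although its unadjusted p in edgeR's quasi-likelihood test was 0.057. A 2-fold difference is therefore not excluded for members with bounds that close to it, and smaller differences remain possible.

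**Figure D4:**
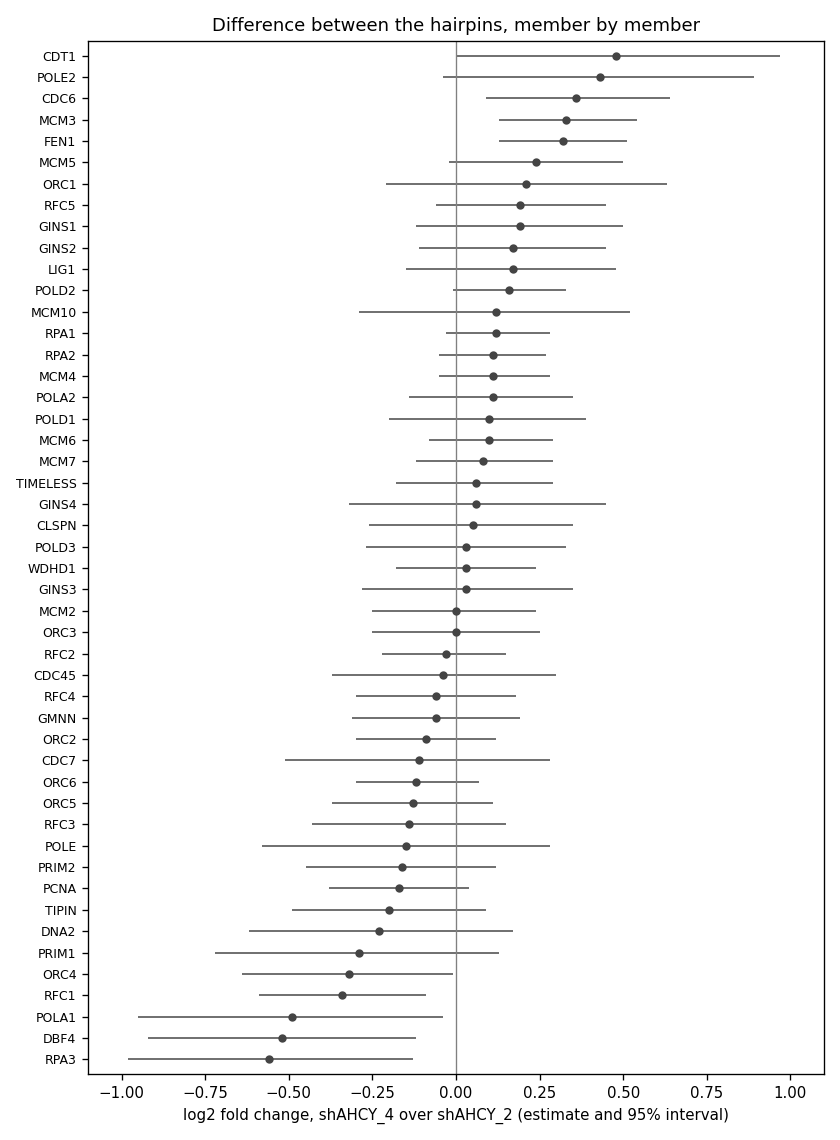
log2 fold change of shAHCY_4 over shAHCY_2 for each of the 48 members, with its 95% interval from the model's standard error, ordered by size. The intervals of all members stay between -0.98 and 0.97, and the estimates run from -0.56 for RPA3 to 0.48 for CDT1.

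Promoter letters were compared with the size of the change, as a description without a test. RefSeq's table held windows for 41 of 48 members, in 52 entries, and none for DNA2, GINS4, MCM4, MCM5, POLD3, RPA2 and RPA3. One or more E2F-type matches lay in 24 of the 52 member entries, or 46.2%, in 28.6% of the 21 entries for mitosis genes, in 26.5% of the 34 entries for the accessory factors described further on, and in 3.35% of all 35116 promoters in the table. The letters TTTGAA or TTCGAA, of the CHR type known from promoters of mitotic genes, lay in 2 member entries, those of MCM6 and DBF4, or 3.85%, in 16.4% of all promoters in 11.8% of the accessory entries and in 71.4% of the mitosis entries. Both types were searched on both strands, and TTCGAA reads the same on each. The median GC content was 64.35% in the member entries and 58.7% in all promoters, and its part in these shares was not tested. Members with an E2F-type match had a median log2 change of -1.87 in EV_4OHT and all 24 were lower, while the 17 without had a median of -0.91 with 14 lower. Against EV_4OHT the medians with and without a match were 0.68 and 0.37 with shAHCY_4, and 0.75 and 0.38 with shAHCY_2. The split was not clean: PRIM1, without a match, fell by 3.73, and ORC3, with a match, fell by 0.33. Only exact letters were searched, so members without a match may hold close variants. The PRIM1 window holds GTTCCCGC, which differs from TTTCCCGC in its first letter only. The window of ORC2, which did not pass in EV_4OHT, holds a close variant as well. It is GCGGGAGA, a single letter from GCGGGAAA, which is TTTCCCGC read on the other strand. How often such variants occur in other promoters was not counted.

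**Figure D5:**
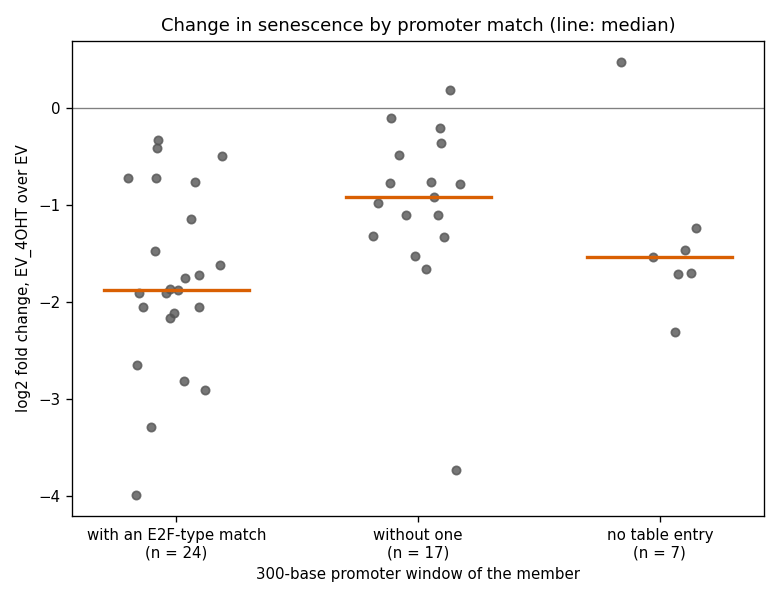
log2 fold change of EV_4OHT over EV for each member (points) with the median (line), for members whose 300-base promoter window holds an E2F-type match, members whose window holds none, and members with no entry in the table. The medians of the first 2 classes are -1.87 and -0.91, and their ranges, -3.99 to -0.33 and -3.73 to 0.18, overlap.

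A further list of 32 accessory factors of initiation and the fork moved less evenly. In EV_4OHT 21 of 32 (65.6%) were lower and 5 (15.6%) higher, beside 26.8% and 26.7% of all genes, with a median log2 change of -0.91. With shAHCY_4 13 (40.6%) were higher than in EV_4OHT and with shAHCY_2 8 (25%), beside 7.58% and 3.91% of all genes, and none was lower in edgeR, DESeq2 or limma-voom, nor in edgeR at an unadjusted p under 0.05. ASF1B, a histone chaperone, had the smallest adjusted p in each, at 9.53 ± 0.856 CPM with shAHCY_4, 8.16 ± 1.03 with shAHCY_2, 2.31 ± 0.571 in EV_4OHT and 30.4 ± 1.15 in EV (mean ± SD, n = 4 each). It fell by 3.71 ± 0.15 in EV_4OHT and rose by 2.05 ± 0.16 with shAHCY_4 and 1.82 ± 0.16 with shAHCY_2. DTL, a ubiquitin ligase subunit that marks CDT1 for destruction, fell by 3.12 ± 0.16 and rose by 1.65 ± 0.17 and 1.42 ± 0.17. PCLAF, a PCNA-binding protein, fell by 3.58 ± 0.26 and rose by 1.62 ± 0.27 and 1.98 ± 0.27, and RNASEH2A, the catalytic subunit of RNase H2, fell by 1.94 ± 0.10 and rose by 0.86 ± 0.11 and 0.81 ± 0.11.

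The 5 accessory genes that rose in EV_4OHT, a smaller share than among all genes, were LRWD1, which binds the origin recognition complex, RNASEH2C, a small subunit of RNase H2, and the small polymerase subunits POLD4, POLE3 and POLE4. LRWD1 had 80.7 ± 4.9 CPM with shAHCY_4, 76.4 ± 8.89 with shAHCY_2, 82.8 ± 3.55 in EV_4OHT and 39.3 ± 3.4 in EV, a rise of 1.08 ± 0.09 in EV_4OHT (adjusted p = 1e-09). RNASEH2C, POLD4, POLE4 and POLE3 rose by 0.67, 0.70, 0.35 and 0.30. All 5 were also higher than EV with each hairpin, and none of them passed between a hairpin and EV_4OHT. Subunits of polymerase delta, polymerase epsilon and RNase H2 thus went in opposite directions in EV_4OHT: POLD1, POLD2, POLD3, POLE, POLE2 and RNASEH2A fell and POLD4, POLE3, POLE4 and RNASEH2C rose. RNASEH2B, the remaining RNase H2 subunit, stood lower in EV_4OHT, at 9.61 ± 1.36 CPM against 17.2 ± 2.31 in EV. Against EV, ASF1A was also higher with shAHCY_2, by 0.39 ± 0.14, and RECQL4 and CHTF8 with shAHCY_4, by 0.51 ± 0.19 and 0.26 ± 0.10 (adjusted p = 0.021, 0.031 and 0.034).

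Neighbouring programmes moved the same way. Of all genes tested, 26.8% were lower in EV_4OHT than in EV, and 7.58% with shAHCY_4 and 3.91% with shAHCY_2 were higher than in EV_4OHT. All 23 genes of a mitosis list were lower in EV_4OHT, with a median of -3.26. With each hairpin 21 were higher, with medians of 1.42 with shAHCY_4 and 1.38 with shAHCY_2. All 8 genes of deoxynucleotide synthesis were lower in EV_4OHT, with a median of -2.09, and 6 were higher with each hairpin, with medians of 0.42 and 0.60.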

How the data were processed

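Libraries were made with Smart-Seq2, per the labels' protocols. Per the submitters' processing notes, the tools were CASAVA 1.8.2, TopHat2 2.0.11 and featureCounts 1.18.0 and the build was hg19; the annotation, strand setting and treatment of reads with several hits are not given in these sources. The values are raw counts per gene as the authors deposited them. Symbols came from a GENCODE annotation of GRCh38 for 50127 of 62069 identifiers, and the 11942 without one held 0.503% of counts.

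Genes were filtered by edgeR's filterByExpr, which left 13526, and tested with edgeR 4.0.16 (R 4.3.3) by glmQLFit and glmQLFTest after TMM scaling, in a single fit of all 16 libraries with group as the only term. P-values were adjusted by Benjamini and Hochberg over all genes tested, with a threshold of 0.05, and tests were two-sided. The common biological coefficient of variation was 11.9%, and 24 pairs of libraries within groups all differed beyond sampling noise. Intervals and standard errors are on the log2 scale, and 95% intervals are the estimate ± 1.96 SE. Levels per kb divide CPM by the longest transcript of the annotation. Alternatives were RLE, upper-quartile and unscaled library totals, other filters, a fit of only the groups compared, DESeq2 1.42.0, limma-voom (limma 3.58.1), removal of each library's GC trend, and each library left out. The script was tested on simulated data. Every member is named. Of the accessory genes, those with the smallest adjusted p in the comparisons with EV_4OHT and of EV_4OHT with EV are named. Any called against the majority are named too, and RNASEH2B is given beside the other RNase H2 subunits. The members and lists were chosen with earlier results of these data known.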

Additional observations from a re-analysis of the deposited data

Results flagged for a closer look

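In 14 of 192 sets of 4 libraries (48 members in 4 groups), 1 library lay far from the other 3 by Dixon's test at the 95% level, which by chance happens in about 1 set in 20. Of these, 6 were replicate 59 of shAHCY_2. There ORC4 had 108 CPM against 62.3 to 65.8 in the other shAHCY_2 libraries, ORC5 had 85.9 against 53.8 to 59.2, and DBF4 had 40.8 against 16.5 to 19.4. PCNA had 119 CPM there against 86.7 to 91.7, GINS3 had 6.85 against 5.55 to 5.74, and POLD1 was low, with 8.51 against 12.2 to 12.9. The member calls against EV_4OHT or EV that changed without this library are given with and without it beside each gene, and the role of its GC trend was not tested. The other low or high shAHCY_2 library was replicate 57, where ORC2 had 19.9 CPM against 25.8 to 26.9.

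With shAHCY_4, MCM5 had 38.9 CPM in replicate 62 against 28.2 to 29.4 in the others, and GINS4 had 7.40 in replicate 63 against 5.03 to 5.34. In EV_4OHT, PCNA had 77.6 CPM in replicate 54 against 68.8 to 69.6. In EV, replicate 49 was high for PRIM1, with 8.90 CPM against 8.57 to 8.61, for RFC5, with 28.6 against 22.5 to 23.4, and for RPA1, with 127 against 110 to 113. PRIM2 was low in EV replicate 52, with 24.4 CPM against 28.2 to 28.4.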

How the results depend on the processing

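The direction of every called member difference was the same under every alternative run, and the counts of members called were within 1.5 times the main count except as follows. Asking for at least 2-fold left 8 members higher with shAHCY_4 and 7 with shAHCY_2 against EV_4OHT, and 17 lower with shAHCY_4 and 23 with shAHCY_2 against EV. Of all 13526 genes tested, the same cut left 189 and 152 higher and 1255 and 1169 lower, in the same order. Between the hairpins, 0 members were called in the main test, 1 with DESeq2, 2 with the GC trend removed and 2 without the low-count filter, and the cause was not tested. Over all genes that comparison called 73 higher and 95 lower, against 266 and 241 with DESeq2, 376 and 239 with the GC trend removed, 123 and 430 without the filter, and 31 and 47 with only the groups compared. Leaving out shAHCY_4 replicate 62, 63 or 64 gave 28 and 41, 36 and 53, and 37 and 38, and leaving out shAHCY_2 replicate 58 or 60 gave 44 and 44, and 53 and 57. With each library left out in turn, 42 to 45 members were lower in EV_4OHT than in EV, 23 to 28 were higher with shAHCY_4 and 19 to 27 with shAHCY_2 than in EV_4OHT, 39 to 41 were lower than EV with shAHCY_4 and 39 to 41 with shAHCY_2, and 0 to 0 differed between the hairpins. Both lowest counts against EV_4OHT came without its replicate 55. Under every alternative, 44 of 48 member calls held for EV_4OHT against EV, 38 for shAHCY_4 and 29 for shAHCY_2 against EV_4OHT, and 40 and 44 against EV. No paired analysis was possible because replicate numbers are not shared between groups. Depth limited PRIM1, MCM10, CDT1 and POLE2, which had 6 to 27 counts per EV_4OHT library. Counts there were also low for DNA2, POLA1 and CLSPN, at 18 to 35, 23 to 33 and 24 to 42.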
